A study of Homo sapiens with 40 samples.

Results

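Chromatin accessibility was compared between BT474 cells held with epidermal growth factor (EGF) and BT474 cells held with heregulin (HRG) for 24 h. The comparison rests on 4 of the 40 peak lists of the series, the 2 titled for EGF and the 2 titled for HRG at 24 h in the sensitive line. BT474 is an established breast ductal carcinoma line that overexpresses HER2 and is sensitive to trastuzumab, and the labels call it breast cancer epithelial cells. The cells were serum starved and then given EGF, HRG or vehicle (water) in fresh starvation medium, with 2 lists for each condition. All the groups used here share the starvation. ATAC-seq reports open chromatin by letting a transposase cut accessible DNA, and each list holds the stretches, called peaks, where the cuts of one library pile up. The study's methods give different concentrations for EGF and HRG, so the ligand and its concentration cannot be told apart. Nothing in the labels states that the duplicates came from separate cultures, so every p-value measures only the spread between these lists.

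EGF is the ligand of EGFR, whereas HRG binds HER3 and HER4. HER2 has no known soluble ligand of its own and is the preferred partner of the other receptors, so both ligands can signal through HER2-containing dimers in a HER2-overexpressing cell. The dimers feed the RAS to ERK and the PI3K to AKT pathways, with HER3 carrying many docking sites for PI3K. AP-1, a dimer of FOS and JUN family proteins, is a well known end point of ERK signaling that binds open enhancers.

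The EGF lists held 55225 and 56363 peaks and the HRG lists 52425 and 52766. The vehicle lists at the same time held 52331 and 50579 peaks, and the 20 BT474 lists ranged from 47571 to 56846. Both EGF lists were longer than both HRG lists, by 3198.5 peaks on average, with an exact permutation p of 0.333, the smallest that 2 lists against 2 can give. The open sequence did not follow the number of peaks, with 33.2 and 33.2 Mb covered after EGF and 34.0 and 32.2 Mb after HRG. The median peak was 458 and 444 bp wide in the EGF lists and 484 and 471 bp wide in the HRG lists. The lists carry no read totals, so the depth behind each peak is unknown. In bulk lists, a site open in fewer cells and a site less open in each cell cannot be told apart.

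The replicates were not equally close. Over the regions open in all 6 lists at 24 h, a region changed place by a median of 2.93 percentile points between the EGF replicates and by 4.59 between the HRG replicates. The 4 pairs of an EGF and an HRG list differed by 3.24 to 4.22 points, which is less than the HRG replicates differed from each other. HRG replicate 2 stood apart, with its ranks most like those of EGF replicate 2 at 12 h (Spearman rho 0.969 over 37834 regions open in all 20 BT474 lists) rather than those of its own replicate (0.951). HRG replicate 1 was most like EGF replicate 1 at 24 h (0.970). The counts and shares of restricted regions and the calls of limma are therefore also given without HRG replicate 2.

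The lists carried the marks of luminal epithelium under both ligands. All 10 luminal markers (among them ERBB2, KRT8, EPCAM, GATA3 and FOXA1) had an open promoter in the 4 lists, with median percentiles of 95.3 after EGF and 94.9 after HRG. Of 6 leukocyte markers none was open in all 4 lists, and 5 (among them PTPRC and SPI1) were open in none. PECAM1 and VWF, which mark endothelium, had no promoter peak, whereas CDH5 had one in all 4 lists. Of 7 basal or mesenchymal markers 4 were open in all 4 lists (VIM, ZEB1, CDH2 and COL1A1) and 2 in none (KRT14 and COL1A2).

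Merging the peaks of the 4 lists that overlapped by at least 1 bp on chromosomes 1 to 22 and X gave 59958 regions. Of these, 46259 (77.2%) were open in all 4 lists and are called shared regions. A region was called ligand-restricted where it had a peak in 2 of 2 lists of one ligand and 0 of 2 of the other. By this rule 1224 regions were open only after EGF (2.04% of all regions) and 283 only after HRG (0.472%). Another 2491 regions were open in 1 list of each ligand. They made up 62.3% of the regions open in exactly 2 lists, and 4 of the 6 ways to choose 2 of the 4 lists take 1 of each ligand.

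The DNA of 7 ligand-restricted regions is shown because these sites carry the differences of presence described below: the 2 strongest of each ligand by rule, and 3 further ones chosen after their values were seen, because they hold an AP-1 motif. Each line gives 100 bases on either side of the summit, on the plus strand of hg38, and capitals mark the AP-1 motif TGANTCA. The first 3 were open only after EGF and the last 4 only after HRG.
Near HUNK, EGF only (chr21:31986600-31986800): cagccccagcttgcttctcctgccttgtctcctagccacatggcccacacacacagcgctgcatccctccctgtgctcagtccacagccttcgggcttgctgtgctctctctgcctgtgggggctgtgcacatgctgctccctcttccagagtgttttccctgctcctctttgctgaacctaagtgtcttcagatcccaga
Near IGFBP2, EGF only (chr2:216615420-216615620): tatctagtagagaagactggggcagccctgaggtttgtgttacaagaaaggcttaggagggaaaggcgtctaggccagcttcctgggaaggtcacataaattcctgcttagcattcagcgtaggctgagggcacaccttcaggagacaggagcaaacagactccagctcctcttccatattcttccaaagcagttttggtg
Near FHAD1, EGF only (chr1:15272560-15272760): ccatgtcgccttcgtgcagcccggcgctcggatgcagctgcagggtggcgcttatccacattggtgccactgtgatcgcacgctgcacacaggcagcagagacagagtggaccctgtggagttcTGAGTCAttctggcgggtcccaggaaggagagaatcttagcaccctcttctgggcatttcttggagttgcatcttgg
Near ENSG00000284691, HRG only (chr7:150400249-150400449): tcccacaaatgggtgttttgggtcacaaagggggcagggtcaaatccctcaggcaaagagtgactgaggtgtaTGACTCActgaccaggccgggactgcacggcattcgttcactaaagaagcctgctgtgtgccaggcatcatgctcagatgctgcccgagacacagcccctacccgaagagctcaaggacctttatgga
Near RSPRY1, HRG only (chr16:57187616-57187816): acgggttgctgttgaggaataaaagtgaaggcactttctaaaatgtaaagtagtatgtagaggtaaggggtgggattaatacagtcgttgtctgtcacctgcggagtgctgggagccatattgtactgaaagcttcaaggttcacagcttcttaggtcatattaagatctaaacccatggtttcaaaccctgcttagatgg
Nearest start ESRRG, HRG only (chr1:217315447-217315647): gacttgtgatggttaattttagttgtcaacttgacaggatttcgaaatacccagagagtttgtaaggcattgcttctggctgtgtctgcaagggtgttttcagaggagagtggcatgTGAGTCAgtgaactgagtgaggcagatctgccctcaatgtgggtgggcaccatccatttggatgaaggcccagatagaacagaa
Near ILDR1, HRG only (chr3:121974685-121974885): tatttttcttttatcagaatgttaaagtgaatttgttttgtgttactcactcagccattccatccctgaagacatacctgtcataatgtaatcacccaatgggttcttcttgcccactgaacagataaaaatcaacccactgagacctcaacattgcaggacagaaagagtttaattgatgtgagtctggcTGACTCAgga

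A motif was found by its letters on both strands within this window, and across all merged regions 15.7% held the AP-1 letters. The motif lay within 100 bases of the summit in the windows near FHAD1, ENSG00000284691 and ILDR1 and in the window whose nearest start is ESRRG. The windows near HUNK, IGFBP2 and RSPRY1 did not contain these letters.

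The regions restricted to one ligand were weak peaks. Their median percentile within a list, where 100 is the highest score in that list, was 8.42 for the regions open only after EGF and 8.74 for those open only after HRG. None of the 1224 or the 283 passed the 50th percentile, and only 7 and 10 passed the 25th. They were also narrow, at a median of 256 bp (EGF) and 302 bp (HRG) against 584 bp for the shared regions. A peak of the other ligand lay within 500 bp of 86 EGF-restricted regions (7.03%) and of 48 HRG-restricted regions (17.0%).

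The number of restricted regions followed how many peaks each list was allowed. With only the 52425 highest peaks of every list, 528 regions were restricted to EGF and 630 to HRG, so the order of the ligands turned. With a score of at least 400 the counts were 741 and 178. Merging peaks trimmed to 400 bp around their summits gave 1537 and 388, and requiring an overlap of 50% gave 1269 and 378. Leaving out HRG replicate 2 raised the counts to 2673 for EGF and 1065 for HRG, since a region then has fewer lists to be open or closed in, and leaving out any 1 list gave 2468 to 3307 and 771 to 1565.

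**Figure D1:**
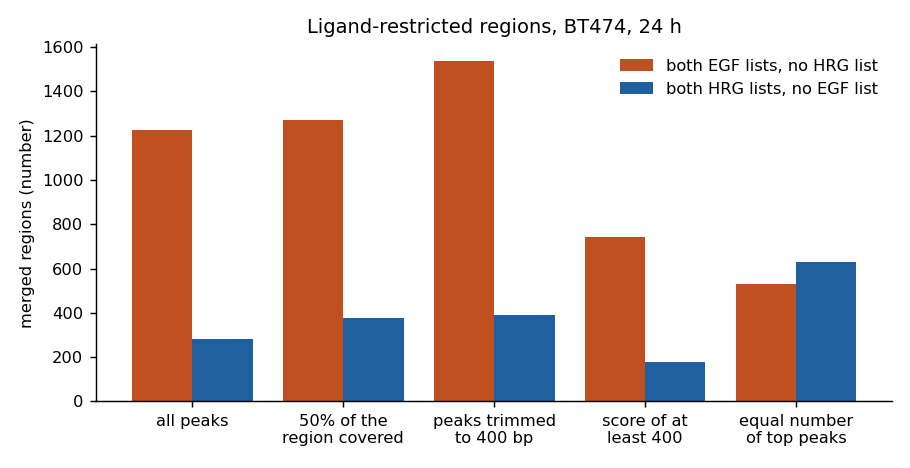
Number of regions (vertical axis) open in 2 of 2 lists of one ligand and in neither list of the other, for EGF and HRG under 5 settings of the peak lists. EGF-restricted regions outnumber HRG-restricted ones in each setting but the one with an equal number of top peaks, where they number 528 against 630.

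The strongest EGF-restricted region lay in an intron of HUNK, which encodes a kinase of the AMPK-related family (chr21:31986557-31987140). It stood at the 32.6th and 33.1st percentile of the EGF lists and had no peak in either HRG list. It was also open in both vehicle lists, at 38.3 and 24.4, and in 18 of the 20 BT474 lists, so that the HRG lists lacked a peak that most other lists held. A region 16947 bp from a start of IGFBP2 (chr2:216615401-216615881), which encodes a carrier of insulin-like growth factors, stood at 27.5 and 32.7 after EGF, at 20.5 in vehicle replicate 1 and had no peak in vehicle replicate 2. A region 22248 bp from the start of EIF4A3 (chr17:80124358-80124880), a helicase of the exon junction complex, stood at 29.8 and 29.8 after EGF and at 31.5 and 20.5 after vehicle. A region in an intron of TIGIT (chr3:114299409-114299677), an immune checkpoint receptor, stood at 28.0 and 25.5, with 18.1 and 25.2 after vehicle.

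Of the 6 EGF-restricted regions named by rule, the other two were less often open elsewhere. The region in an intron of FHAD1 (chr1:15272551-15272820) stood at 27.1 and 29.3 after EGF, at 1.35 in 1 vehicle list, and was open in 10 of the 20 BT474 lists. The region in an intron of C8orf74 (chr8:10679438-10679911) stood at 6.18 in EGF replicate 1 and 46.0 in EGF replicate 2, a spread wider than that of any other EGF-restricted region named here, and had no vehicle peak.

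The HRG-restricted regions of highest score fell into 2 kinds. At RSPRY1 and ZMIZ1 a peak of the EGF lists lay beside the region, within 500 bp, and at least 1 vehicle list was open. The RSPRY1 region (chr16:57186793-57187801) stood at 44.6 and 34.5 after HRG, the nearest EGF peak was 141 bp away, and the vehicle lists held a peak there at 93.7 and 94.9. The region 1218 bp from a start of ZMIZ1 (chr10:79066921-79067748), a transcriptional coregulator, stood at 38.5 and 20.3 after HRG, with an EGF peak 228 bp away and a single vehicle peak at 17.1.

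Another 3 had no peak in any EGF or vehicle list at 24 h and held an AP-1 motif. The region 4430 bp from the start of ENSG00000284691 (chr7:150399944-150400716) stood at 47.1 and 45.9 after HRG at 24 h and at 44.4 and 43.2 after HRG at 12 h, with no peak after EGF at 12 h. It was open in 5 of the 20 BT474 lists. The region 47028 bp from a start of ILDR1 (chr3:121974582-121975094), a component of tricellular junctions, stood at 32.0 and 27.4 at 24 h and at 28.9 and 40.9 at 12 h after HRG, again with no peak after EGF at 12 h, and was open in 6 lists. The region with no coding start within 100 kb, of which ESRRG is the nearest at 177462 bp (chr1:217315217-217315738), stood at 25.6 and 34.7 and was open in these 2 lists alone.

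Restricted regions were seldom promoters. A promoter, here the 1 kb on either side of a protein-coding start, was touched by 102 of the EGF-restricted regions (8.33%, 95% Wilson interval 6.91 to 10.0) and by 19 of the HRG-restricted regions (6.71%, 4.34 to 10.2), against 26.3% of all merged regions and 13.1% of the regions open in 1 to 3 lists. Introns held 544 (44.4%) and 115 (40.6%), and sequence between genes 520 (42.5%) and 143 (50.5%). The promoter share rested on single HRG lists. Without HRG replicate 2 it was 5.27% for EGF and 28.4% for HRG, and without HRG replicate 1 it was 17.9% and 4.03%. The intervals cover counting error only.

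The vehicle lists showed which of these regions also had a peak in control. A missing vehicle peak does not prove a gain, since weaker sites are not listed and depth is unknown. Of the EGF-restricted regions 431 (35.2%) were open in both vehicle lists, 351 (28.7%) in 1 and 442 (36.1%) in none. Of the HRG-restricted regions 63 (22.3%) were open in both, 45 (15.9%) in 1 and 175 (61.8%) in none. Among all merged regions 79.0% were open in both vehicle lists, and among the regions open in 1 list of each ligand 32.5%. The shares open in none were 13.3% of all merged regions and 45.6% of those open in 1 list of each ligand. Most of the HRG-restricted regions thus had no vehicle peak, whereas the EGF-restricted ones were spread over the 3 states. The share open in both vehicle lists moved between 23.4% and 50.4% (EGF) and between 15.1% and 30.2% (HRG) when 1 of the 4 lists was left out, with 50.4% for EGF and 15.1% for HRG reached without HRG replicate 1. Without HRG replicate 2 the shares open in both were 47.3% for EGF and 24.5% for HRG, and those open in none 28.7% and 54.9%.

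The restricted regions were followed through the other BT474 lists, each condition being read as its own value. At 12 h the EGF-restricted regions were open in 45.9% and 56.6% of cases after EGF, in 49.8% and 44.2% after HRG and in 41.1% and 39.1% after vehicle. The HRG-restricted regions were open in 47.0% and 55.5% after HRG at 12 h and in 19.8% and 19.8% after vehicle. After EGF at 12 h they were open in 35.0% and 72.1%, so that EGF replicate 2 at 12 h held more of them than either HRG list did. That list is the longest of the 20 (56846 peaks), its ranks were those HRG replicate 2 most resembled, and 89.2% of all merged regions were open in it, against 85.6% in EGF replicate 1 and 86.7% and 86.6% in the HRG lists at 12 h. Redefined without HRG replicate 2, the HRG-restricted regions were open at 12 h in 31.4% and 34.8% after EGF, in 37.6% and 40.5% after HRG and in 21.3% and 16.2% after vehicle. At 1 h the HRG-restricted regions were open in 21.9% and 31.1% after HRG and in 36.7% and 30.7% after EGF, in lists that held 76.2% to 83.4% of all merged regions. In BT474R, the trastuzumab-resistant derivative, the HRG lists at 24 h held 43.5% and 26.5% of the HRG-restricted regions and the EGF lists 40.6% and 39.2%. Of all merged regions these lists held 77.7% and 66.1% (HRG) and 73.2% and 71.9% (EGF), and without HRG replicate 2 the shares were 47.3% and 21.2% (HRG) and 39.7% and 35.0% (EGF).

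**Figure D2:**
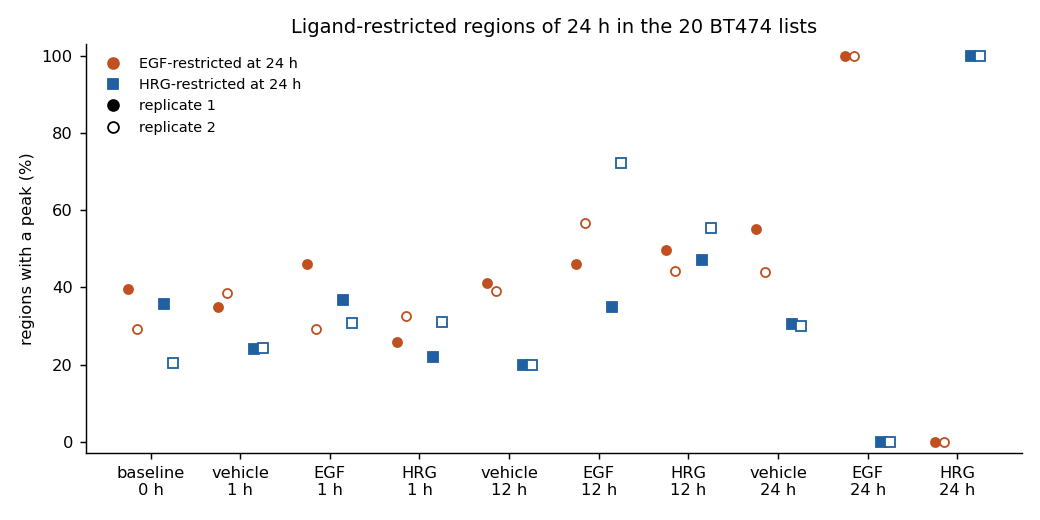
Percent of the EGF-restricted and HRG-restricted regions (vertical axis) with a peak in each of the 20 BT474 lists, by condition and time. The 4 lists that define the regions are at 100% or 0% by rule, and the HRG-restricted regions reach 72.1% in EGF replicate 2 at 12 h.

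Of the 19 motifs searched, AP-1 had the largest difference in share between the restricted regions of the ligands when all 4 lists were used. It was found in 90 of the 283 HRG-restricted regions (31.8%, 95% Wilson interval 26.7 to 37.4) and in 112 of the 1224 EGF-restricted regions (9.15%, 7.66 to 10.9), against 15.7% of all regions and 15.5% of shared regions. The regions open in 1 list of each ligand stood at 16.5% (15.1 to 18.0). Outside promoters the shares were 32.2% for HRG and 9.54% for EGF, against 19.5% of all distal regions. Without HRG replicate 2 the shares were 22.3% for HRG and 12.4% for EGF, and with equal numbers of top peaks they were 32.5% and 8.33%.

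The share was lower in regions that were open in vehicle. Among HRG-restricted regions open in no vehicle list, 81 of 175 (46.3%) held the AP-1 letters, against 2 of 63 (3.17%) of those open in both. Among EGF-restricted regions the corresponding numbers were 67 of 442 (15.2%) and 20 of 431 (4.64%). Without HRG replicate 2 the regions open in no vehicle list stood at 35.7% for HRG and 24.8% for EGF. Regions open in both HRG lists and 1 EGF list stood at 30.0%, and those open in both EGF lists and 1 HRG list at 11.5%. Even regions seen in a single list followed the ligand, at 18.9% and 27.2% for HRG replicates 1 and 2 and at 12.7% and 11.9% for EGF replicates 1 and 2.

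Other motifs were unevenly spread as well. GATA letters (AGATAA) were found in 17.3% of HRG-restricted, 7.35% of EGF-restricted and 8.13% of all regions. C/EBP letters (TTGCNNAA) were found in 19.4%, 9.64% and 10.3%, and forkhead letters (TGTTTAC), read by FOXA1 in luminal cells, in 11.7%, 6.37% and 8.09%. The EGF-restricted regions held more of the CTCF motif, which marks insulators and loop anchors, at 5.72% against 1.41% of HRG-restricted and 2.93% of all regions. The GC-rich SP/KLF letters (GGGCGG), frequent at promoters, were found in 8.17% of EGF-restricted, 3.18% of HRG-restricted and 22.1% of all regions. Of these differences only that of CTCF kept its direction without HRG replicate 2, at 4.04% for EGF and 1.41% for HRG. The GATA shares were then 12.3% for EGF and 9.77% for HRG, the C/EBP shares 11.9% and 11.5%, the forkhead shares 9.73% and 6.76% and the SP/KLF shares 5.65% and 19.3%. The AP-1 letters differ from the CREB letters TGACGTCA by 1 base, and a match says only that the letters are there.

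For AP-1, every peak of a list, and not only the restricted ones, gave the same order. Of the distal peaks at 24 h, 19.0% and 19.0% held the AP-1 letters in the EGF lists, 20.2% and 20.5% in the HRG lists and 15.9% and 15.7% in the vehicle lists. Both ligands stood above vehicle and both HRG lists above both EGF lists. The order was the same at 12 h, with 18.6% and 19.5% after EGF, 20.2% and 20.3% after HRG and 16.0% and 16.0% after vehicle. At 1 h the lists stood at 19.7% and 20.6% after EGF, 21.2% and 21.3% after HRG and 17.2% and 16.9% after vehicle.

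The difference of EGF minus HRG was -1.16 percentage points at 1 h, -1.21 at 12 h and -1.40 at 24 h. At 24 h alone the exact permutation p was 0.333, the smallest possible. Over the 3 times the mean was -1.26, with a two-sided exact permutation p of 0.00926 when lists were relabelled within each time, which is the smallest that its 216 relabellings can give. This test was chosen after the shares at 24 h had been seen. AP-1 had the largest difference of the 19 motifs in the lists at 24 h, and those lists are part of the test. Its p is therefore not a check independent of them. With the 25000 highest distal peaks of each list the mean was -1.38 and the p the same. In BT474R at 24 h the order was the other way, with 23.4% and 24.0% after EGF, 18.1% and 19.2% after HRG and 16.0% and 16.6% after vehicle. The difference between the lines was -6.46 points, with an exact permutation p of 0.0556, the smallest that 36 relabellings allow.

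**Figure D3:**
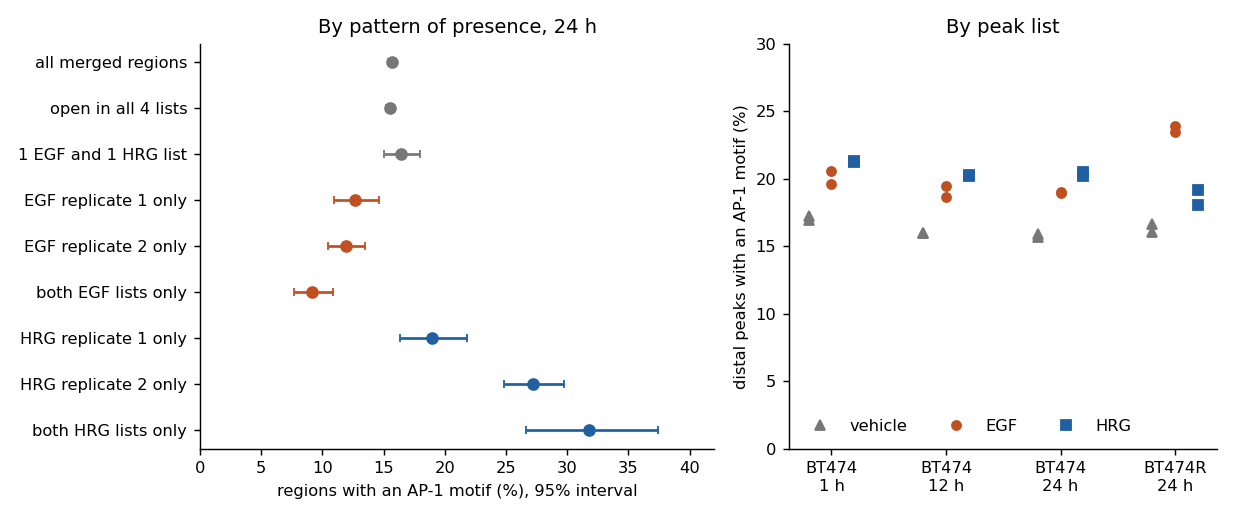
Left, percent of regions with the AP-1 letters near the summit (horizontal axis) by the lists in which a region is open, with 95% Wilson intervals. Right, percent of the distal peaks of each list with these letters (vertical axis, 1 point per list), for vehicle, EGF and HRG in BT474 at 1, 12 and 24 h and in BT474R at 24 h. HRG-restricted regions stand at 31.8% and EGF-restricted ones at 9.15%, and each HRG list of BT474 lies above each EGF list of the same time.

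The rank of shared AP-1 regions was less clear. Over 5104 distal regions with the letters and open in all 6 lists at 24 h, the median percentile was 46.2 and 45.6 after EGF, 45.5 and 49.7 after HRG and 36.4 and 35.5 after vehicle. The ligands overlapped here, with HRG replicate 1 at or below the EGF lists and HRG replicate 2 above, and both ligands lay above vehicle. EGF minus HRG was 0.44 without HRG replicate 2 and -3.77 without HRG replicate 1. Of the 19 motifs 4 had both EGF lists above both HRG lists (TFAP2, HIF, CTCF and NF-kB). The reverse held for 1 (the estrogen response element, over 9 regions), and the other 14 overlapped. Over all 46259 shared regions both EGF lists stood above both HRG lists in 18.7%, and the reverse held in 12.4%. The count of 4 motifs is near that share, and the motif medians were not tested. CTCF regions (1098) stood at 26.4 and 29.2 after EGF, 25.8 and 22.3 after HRG and 29.9 and 29.4 after vehicle. There both EGF lists lay above both HRG lists, by 3.77 points on average and by 2.04 without HRG replicate 2, and both ligands below vehicle. Regions with NF-kB letters stood at 45.0 and 44.1 after EGF and at 41.9 and 41.7 after HRG. The medians of all distal regions were 40.8 and 40.2 after EGF, 39.3 and 41.8 after HRG and 38.4 and 38.5 after vehicle.

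No shared region passed the test of a difference in rank between the ligands. Each shared region was given the percentile of its highest peak among the 46259 shared regions of a list, and limma fitted to the 4 lists called 0 regions higher after EGF (0% of those tested) and 0 higher after HRG (0%) at an adjusted p of 0.05. At an unadjusted p under 0.05 there were 1442 regions (3.12%), 653 higher after EGF and 789 higher after HRG, and the smallest adjusted p was 0.0914. Both EGF lists ranked above both HRG lists in 8650 regions (18.7%) and both HRG lists above both EGF lists in 5752 (12.4%). Without HRG replicate 2 the counts of limma calls were 0 and 0, with the lone HRG list taken to vary as the EGF pair does.

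The regions with the smallest p in this fit were ones where the lists of the ligands held different numbers of peaks within the same stretch of open chromatin. The DNA at the summit of 4 of them is given because they head the ranking in each direction. BTG2 and OLIG3 ranked higher after EGF, and TRIM47 and CRYM higher after HRG.
BTG2 promoter (chr1:203305184-203305384): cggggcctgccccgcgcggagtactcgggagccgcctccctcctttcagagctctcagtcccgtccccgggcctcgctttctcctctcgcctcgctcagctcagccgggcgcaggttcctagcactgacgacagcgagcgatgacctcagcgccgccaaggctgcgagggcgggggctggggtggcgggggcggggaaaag
Near OLIG3 (chr6:137589066-137589266): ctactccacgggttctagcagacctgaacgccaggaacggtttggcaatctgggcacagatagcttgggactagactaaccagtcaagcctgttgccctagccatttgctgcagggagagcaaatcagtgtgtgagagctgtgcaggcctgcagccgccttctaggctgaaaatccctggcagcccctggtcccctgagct
TRIM47 promoter (chr17:75877874-75878074): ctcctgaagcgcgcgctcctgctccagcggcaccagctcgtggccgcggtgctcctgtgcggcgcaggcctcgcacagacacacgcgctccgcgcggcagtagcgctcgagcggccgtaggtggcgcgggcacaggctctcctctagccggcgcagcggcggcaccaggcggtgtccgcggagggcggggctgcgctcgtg
CRYM promoter (chr16:21300698-21300898): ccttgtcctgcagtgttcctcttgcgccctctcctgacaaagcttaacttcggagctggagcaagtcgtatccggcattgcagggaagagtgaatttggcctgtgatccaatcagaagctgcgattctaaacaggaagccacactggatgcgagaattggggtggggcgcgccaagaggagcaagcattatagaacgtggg

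BTG2, an antiproliferative immediate early gene, had its promoter region (chr1:203304994-203307204) at 98.0 and 98.0 after EGF and at 93.4 and 93.4 after HRG. The difference was 4.60 ± 0.434 (SE, n = 2 lists per ligand) with a limma adjusted p of 0.275. The EGF lists held 1 peak there and the HRG lists 2, and when the scores of all peaks in the region were summed the difference was 0.0162. CRYM, which encodes a thyroid hormone binding protein, showed the opposite layout. Its promoter region (chr16:21300511-21302149) stood at 80.3 and 81.2 after EGF, 95.3 and 95.4 after HRG and 94.9 and 95.7 after vehicle, a difference of -14.6 ± 0.822 (limma adjusted p 0.0914) that became -0.45 with summed scores.

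TRIM47, a ubiquitin ligase, had its promoter region (chr17:75875522-75878978) at 86.1 and 85.7 after EGF and 98.5 and 97.4 after HRG, with 2 peaks in each EGF list and 1 in each HRG list. Its difference of -12.1 ± 0.678 (limma adjusted p 0.0914) became -0.59 with summed scores. The region 94138 bp from OLIG3 (chr6:137588532-137589742) stood at 83.0 and 82.8 after EGF and 62.0 and 58.3 after HRG, and its difference of 22.7 ± 2.54 (limma adjusted p 0.402) became 3.27. All 12 regions named by rule, 6 for each direction, held different numbers of peaks in the 4 lists, and all 12 were open in 20 of 20 BT474 lists. PRLR, the prolactin receptor, stood at 90.2 and 88.2 after EGF and 71.3 and 75.9 after HRG, and its difference of 15.6 turned to -0.529 with summed scores. BCL2L11, which encodes the proapoptotic protein BIM, differed by -6.78 and by -0.242 with summed scores.

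Such uneven regions were few but heavy at the top of the ranking. Of the shared regions 43909 (94.9%) held 1 peak in every list. More peaks in both EGF lists than in both HRG lists were found in 226 regions (0.489%) and the reverse in 29 (0.0627%). Limma on the 43909 regions with 1 peak in every list, and on summed scores over all shared regions, again called 0 and 0.

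**Figure D4:**
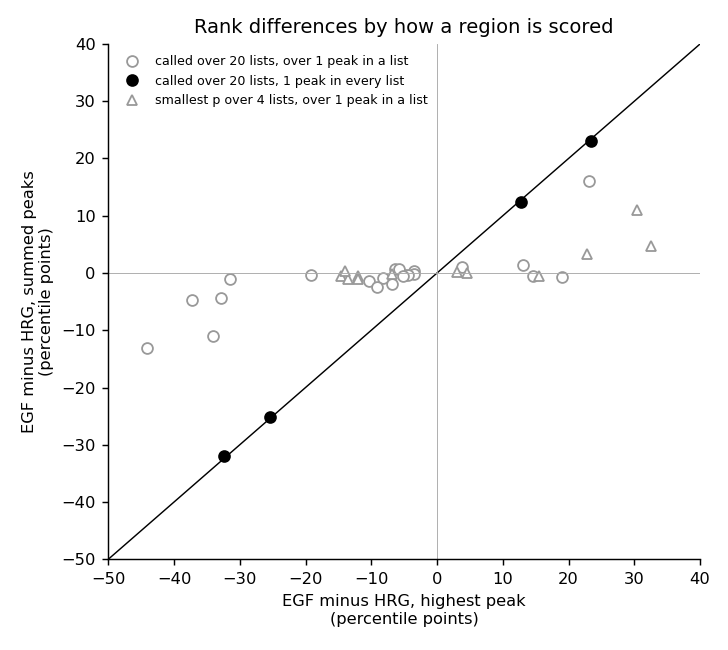
Difference of EGF minus HRG in percentile points from the highest peak of a region (horizontal axis) and from the summed scores of all its peaks (vertical axis), for 26 regions called over the 20 BT474 lists and the 12 regions named from the 4 lists. Most points lie near 0 on the vertical axis. The 4 called regions with 1 peak in every list, near IGFBP2, NEK3, MET and GSG1 (filled points), lie on the line of equal values. With 1 peak the highest and the summed score are the same, so their place on this line was fixed in advance.

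Borrowing the spread of all 20 BT474 lists gave a few calls. Over the 37834 regions open in all of them, limma called 7 regions higher after EGF (0.0185%) and 19 higher after HRG (0.0502%) at 24 h. Of these 26, 21 had more peaks in both lists of the ligand where the region ranked lower. The 7 included the promoter of PRLR (19.0 points) and regions near FOXD3 (23.2) and FDPS (3.80), an enzyme of isoprenoid synthesis. The 19 included regions near PCMT1 (-37.3), EXOSC10 (-44.1), CDK17 (-34.1), ADM (-5.74) and FOSL2 (-5.20), an AP-1 subunit. With summed scores the differences were -0.646 for PRLR, 16.0 for FOXD3, 1.04 for FDPS, -4.75 for PCMT1, -13.1 for EXOSC10, -11.0 for CDK17, 0.727 for ADM and -0.476 for FOSL2. The fit of summed scores called 1 region higher after EGF and 3 higher after HRG. Those near IGFBP2, MET and GSG1 were among the 26, and that at ERCC1 was not. Each of the 4 held 1 peak in each of the 4 lists. They were named after their values were seen. The region near NEK3, also with 1 peak in each of the 4 lists, went the other way. It was among the 26 (limma adjusted p 0.0464) and was not called with summed scores (0.181).

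The DNA of the regions near IGFBP2 and MET is shown because they were called under both ways of scoring. With 1 peak in each list, the highest and the summed score of these regions are the same. Their like differences are therefore not a second check. Neither window holds the AP-1 letters.
Near IGFBP2, higher after EGF (chr2:216671077-216671277): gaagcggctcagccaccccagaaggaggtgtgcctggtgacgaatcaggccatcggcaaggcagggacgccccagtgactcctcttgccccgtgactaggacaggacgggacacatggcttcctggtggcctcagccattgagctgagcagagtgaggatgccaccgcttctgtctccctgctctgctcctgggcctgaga
Intron of MET, higher after HRG (chr7:116711159-116711359): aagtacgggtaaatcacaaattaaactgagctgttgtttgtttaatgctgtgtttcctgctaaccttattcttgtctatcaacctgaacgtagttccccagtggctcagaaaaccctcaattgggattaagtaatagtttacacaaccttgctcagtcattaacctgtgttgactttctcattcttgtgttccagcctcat

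The region near IGFBP2 lay between genes, 9645 bp from the nearest start (chr2:216670378-216671676). Among the 37834 regions it stood at 80.8 and 77.2 after EGF, 60.6 and 50.6 after HRG and 97.5 and 95.9 after vehicle at 24 h. Both ligands lay below vehicle, and HRG further below. The difference of EGF minus HRG with summed scores was 23.1 ± 2.41 (SE, n = 2 lists per ligand, limma adjusted p 0.00932). Against the vehicle lists, which both comparisons share, EGF differed by -18.3 (limma adjusted p 0.000312) and HRG by -41.3 (1.16e-06). The same order was seen at 12 h, at 88.3 and 90.2 after EGF, 78.4 and 76.6 after HRG and 97.2 and 96.8 after vehicle, where the ligands differed by 11.8 (limma adjusted p 0.262).

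MET encodes the receptor of hepatocyte growth factor. A region in its intron, 38496 bp from the nearest start (chr7:116710886-116711430), stood at 1.61 and 3.36 after EGF, 25.9 and 29.9 after HRG and 0.975 and 3.05 after vehicle. It was among the weakest shared regions after EGF and vehicle and well above them after HRG. The difference with summed scores was -25.2 ± 3.13 (limma adjusted p 0.0317). HRG differed from vehicle by 25.7 (limma adjusted p 0.000149) and EGF by 0.463 (0.942). At 12 h both ligands were high there, at 20.1 and 26.1 after EGF and 23.9 and 28.9 after HRG, against 4.71 and 1.51 after vehicle. The change of the ligand difference from 12 h to 24 h did not pass the interaction test at MET or at GSG1.

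GSG1, named for its expression in germ cells, was also near a region that ranked higher after HRG at 24 h. The region lay 2324 bp from its start in introns of GSG1, FAM234B and ENSG00000289766 (chr12:13098130-13098895), and stood at 5.95 and 4.71 after EGF, 36.1 and 39.2 after HRG and 10.1 and 11.0 after vehicle. The difference with summed scores was -32.0 ± 4.10 (limma adjusted p 0.0317). At 12 h it stood at 30.7 and 38.3 after EGF, 38.1 and 46.6 after HRG and 13.2 and 15.1 after vehicle. Its earlier course was unlike that of the MET region. At baseline, before treatment, it stood at 25.8 and 32.3, and the MET region at 10.0 and 6.29. At 1 h it stood at 44.9 and 47.2 after EGF, 43.2 and 45.4 after HRG and 26.9 and 38.3 after vehicle. ERCC1 encodes a subunit of the nuclease of nucleotide excision repair. Its promoter region (chr19:45450155-45451350) stood at 46.1 and 38.1 after EGF, 67.9 and 64.8 after HRG and 75.2 and 69.1 after vehicle, a difference of -24.4 ± 3.27 with summed scores (limma adjusted p 0.0396). With highest peaks the same region gave -24.2 ± 6.93 and a limma adjusted p of 0.471. It held 1 peak in each of the 4 lists, so the difference hardly moved. The SE, which is taken from all 20 BT474 lists, did.

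These 4 calls did not all survive the loss of a list. Leaving out each of the 4 lists in turn kept every direction, but IGFBP2 was called in 2 of the 4 fits (without HRG replicate 1 and without HRG replicate 2), MET and GSG1 in 1 (without HRG replicate 1) and ERCC1 in none. The differences ranged from 17.8 to 28.1 for IGFBP2, from -27.2 to -23.4 for MET, from -33.4 to -30.6 for GSG1 and from -28.4 to -20.4 for ERCC1. The highest limma adjusted p was 0.119 for IGFBP2, 0.201 for MET, 0.220 for GSG1 and 0.318 for ERCC1. Without HRG replicate 2, which stood apart, the adjusted p was 0.00459 for IGFBP2 and 0.148 for MET, GSG1 and ERCC1 each. In the fits without 1 list the lone list of a ligand is taken to vary as the other groups do. How many regions these fits called also changed with the list left out, and was largest without HRG replicate 1.

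**Figure D5:**
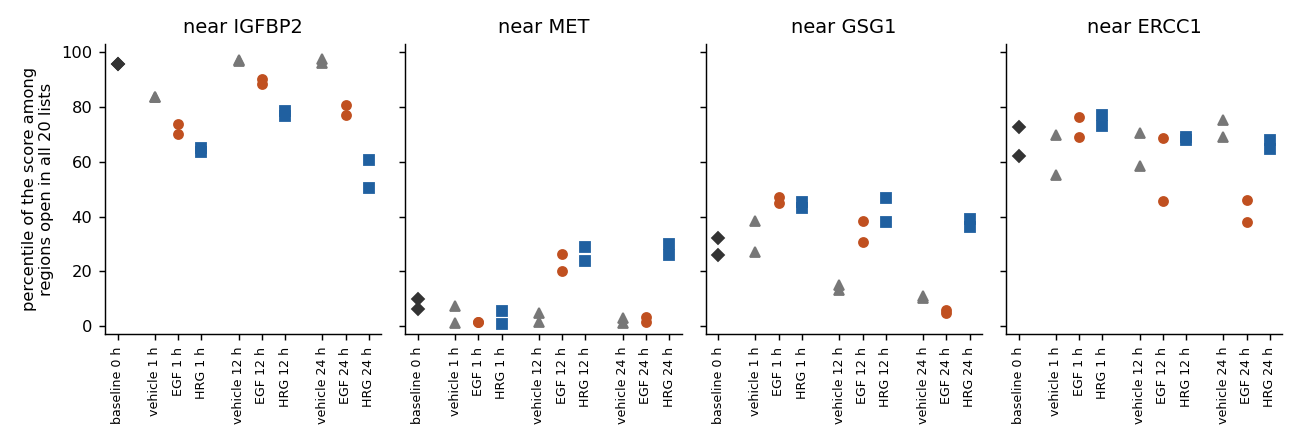
Percentile among the 37834 regions open in all BT474 lists (vertical axis) of the regions near IGFBP2, MET, GSG1 and ERCC1, by time for vehicle, EGF and HRG, with each list as a point. At 24 h the HRG lists of the MET region stand at 25.9 and 29.9 and the EGF lists at 1.61 and 3.36, whereas at 12 h both ligands lie above 20.

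More regions were called between a ligand and vehicle than between the ligands. In the fit of highest peaks over 20 lists 5488 regions differed between EGF and vehicle at 24 h (14.5%) and 5185 between HRG and vehicle (13.7%), 3856 higher and 1632 lower after EGF and 3834 higher and 1351 lower after HRG. The 2 comparisons share the vehicle lists. A region changed place by a median of 4.59 to 5.09 points between an EGF and a vehicle list. Between an HRG and a vehicle list the median was 4.09 to 6.23, and between an EGF and an HRG list 3.24 to 4.22. The last range lay below that of EGF and vehicle and overlapped that of HRG and vehicle.

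Promoters of the receptors and of the genes best known to answer them did not pass the test of a difference between the ligands. Those of ERBB2, ERBB3, DUSP6 and FOXA1 ranked near the top of every list, where a rank leaves little room to show a difference. ERBB2, which encodes HER2, lay in a region of 10577 bp with a percentile of 100 in each list after rounding. EGFR stood at 87.4 and 87.1 after EGF and 92.1 and 86.8 after HRG, a difference of -2.13 ± 1.78. ERBB3 (HER3) stood between 98.3 and 98.7 in the 4 lists, and ERBB4 (HER4) at 47.1 and 51.7 after EGF and 62.0 and 39.7 after HRG. The ERBB4 difference was -1.46 ± 8.23, and its HRG replicates lay further apart than the ligands.

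FOSL1, an AP-1 subunit induced by ERK, stood at 71.7 and 73.8 after EGF and 74.8 and 70.3 after HRG, a difference of 0.21 ± 2.63. DUSP6, the phosphatase that shuts off ERK, stood at 98.4 and 98.6 after EGF and 99.8 and 99.8 after HRG. Its lists did not overlap, the difference was -1.31 ± 0.332, and the limma adjusted p was 1.00 when rounded. FOXA1, the pioneer factor of luminal cells, stood at 99.8 in each list. In these 7 promoters the limma adjusted p was 1.00 when rounded.

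Lists of genes of the ligands' pathways were read in the same way. All 26 AP-1 and immediate early genes had a promoter open in the 4 lists, against 64.4% of 19618 protein-coding genes, and their median promoter difference was -0.54 points, with 18 promoters higher after HRG and 8 higher after EGF. For all protein-coding genes the median was 0.17, with 7187 promoters higher after EGF and 5423 higher after HRG. ERK feedback regulators (21 of 22 promoters open) had a median of -0.97, with 10 higher after EGF and 11 higher after HRG. PI3K, AKT and mTOR genes (27 of 29) had a median of -0.27, with 9 and 18, and ERBB receptors and ligands (10 of 15) one of 0.14, with 6 and 4. Basal, adhesion and migration genes (23 of 34) had a median of 1.66, with 17 higher after EGF and 6 higher after HRG. Luminal and steroid receptor genes (0.02), hypoxia and glycolysis genes (-0.18), G1 cell cycle genes (0.16), and interferon and NF-kB genes (0.35) stayed close to the median of all genes. Lipid synthesis and hormone response genes stood at -0.00108. None of these promoters passed the test.

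Few restricted regions were assigned to these genes. Of the 52724 regions within 100 kb of a coding start, 1.88% were restricted to EGF and 0.423% to HRG. Of the 160 regions of AP-1 and immediate early genes 2 were restricted to EGF and 1 to HRG. A region 37965 bp from FOS stood at 10.1 and 25.9 after EGF and at 10.7 and 29.6 after vehicle, and one 3044 bp from EGR4 at 10.8 and 18.1 after EGF and 11.9 and 4.81 after vehicle. Both were thus open in vehicle and lacked a peak after HRG. A region 94791 bp from KLF6, an immediate early zinc finger factor, stood at 14.7 and 28.1 after HRG and had no vehicle peak.

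Of the 145 regions of ERK feedback regulators 3 were restricted to EGF, near TRIB1 (18.3 on average), in an intron of SPRED2 (16.7 and 1.48) and 6305 bp from DUSP1 (1.44 and 6.89). The DUSP1 region held the AP-1 letters and had no vehicle peak. EGFR itself had 1 EGF-restricted region among the 13 assigned to it, in an intron 19996 bp from the nearest start (chr7:55129719-55130250). It stood at 10.4 and 8.87 after EGF, held AP-1 and C/EBP letters, and had no peak after HRG or vehicle.

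Of all 283 HRG-restricted regions 31.8% held AP-1 letters and 61.8% had no vehicle peak, and an EGF peak was absent by rule. Of the 7 assigned to the listed genes, 3 in introns held the letters and had no vehicle peak. In ESR1, the estrogen receptor, it stood at 6.21 and 8.78 (chr6:151668885-151669170). In LAMA3, a laminin chain of the basement membrane, it stood at 12.5 and 10.3 (chr18:23695442-23695712), and in EPAS1, a hypoxia-inducible factor, at 4.25 and 6.63 (chr2:46331744-46332120). These are weak peaks near the lower end of their lists. LAMB3, another laminin chain, was assigned an EGF-restricted region 16454 bp from its start, at 12.7 and 8.81, that lay in an intron of CAMK1G. PFKFB4, a regulator of glycolysis, had one in an intron at 10.9 and 21.1 after EGF and 12.0 and 17.5 after vehicle. No G1 cell cycle gene had a restricted region of either ligand among 69 assigned regions.

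The difference between the ligands at 24 h was also compared with that at other times and in the resistant line, by an interaction term over 8 lists each. It differed from 1 h in 14 of 40615 regions (0.0345%), from 12 h in 1 of 44130 (0.00227%) and from BT474R at 24 h in 46 of 35385 (0.13%). The larger difference lay at 24 h in BT474 in 5 of the 14, 0 of the 1 and 7 of the 46. With summed scores 6, 0 and 33 regions differed.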

How the data were processed

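ATAC-seq peak lists were deposited for 40 libraries (20 groups of 2), and the 4 of BT474 with EGF or HRG at 24 h were compared. The authors trimmed reads and called peaks per library; the submitters' processing notes name FastQC, Trim Galore 0.6.6 and Genrich, and the study's methods map to GRCh38. By the study's methods Genrich also dropped reads on mitochondrial DNA and in blacklisted regions; its thresholds were not given in the sources read. The value used is the deposited score in column 7 of each peak (the area under the significance curve), which was 200 or more in every list, so weaker sites are listed nowhere and a missing peak is not proof of closed chromatin. Read totals are not in the lists.

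Peaks of the 4 lists overlapping by at least 1 bp on chromosomes 1 to 22 and X were merged. A region took the highest score of its peaks in a list, as a percentile rank among the regions open in all lists of a fit, or among all peaks of a list for regions restricted to a ligand. Ranks were tested with limma 3.58.1 (R 4.3.3; empirical Bayes, intensity trend, Benjamini-Hochberg adjustment over all regions, threshold 0.05), and single values with exact two-sided permutation tests (scipy 1.17.1). The script was tested on simulated data. Replicate numbers were treated as names: deviations of same-numbered EGF and HRG lists from their group means had a correlation of 0.00209 over 46259 regions. Starts and introns came from GENCODE 44. A region was assigned to the nearest protein-coding start within 100 kb. Sequences came from hg38, and 19 motifs were searched within 100 bases of the summit.

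The text names the 6 restricted regions of highest mean percentile for each ligand, the 6 shared regions of smallest p in each direction, 7 promoters and the restricted regions of 10 gene lists. The results for 2 regions that this rule names are not reported here. The regions, gene lists and motifs were chosen with earlier results of these data known. Summed scores, regions with 1 peak in every list, the AP-1 shares of whole lists the shares of redefined restricted regions without 1 HRG list and the fits of 20 lists without 1 list were added after seeing the data. Other alternatives were a replicate block, log2 of the score, a score of at least 400, equal numbers of peaks, other merging, other windows and leaving out each list.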

Additional observations from a re-analysis of the deposited data

Results flagged for a closer look

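The difference between EGF and HRG at 24 h in BT474 was not the same in other settings at some regions, by limma interaction terms over 8 lists. It differed from that at 1 h in 14 regions, from that at 12 h in 1 and from that in BT474R at 24 h in 46. Of these, 6, 0 and 30 held the same number of peaks in the lists compared. The region with the smallest p against 1 h was the CRYM promoter, where the difference at 24 h was -16.7 points relative to 1 h. The same promoter came first against BT474R, at -19.6 points, and EOLA1 on chromosome X was the region that differed from 12 h, by 16.9 points. At CRYM the EGF lists at 24 h held 2 peaks and the HRG lists 1, and with summed scores the limma adjusted p was 0.98 against 1 h, 0.97 for EOLA1 against 12 h and 0.56 for CRYM against BT474R.

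The AP-1 share of distal peaks went opposite ways in the lines: EGF minus HRG in BT474 less the same in BT474R was -6.46 percentage points, with every list of one ligand on the other side in each line (exact permutation p 0.0556, the smallest possible). The cause was not tested.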

How the results depend on the processing

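The 0 regions higher after EGF and 0 higher after HRG became 7 and 19 with all 20 BT474 lists and 1 and 3 with all 20 lists and summed scores. The replicate block gave 0 and 16 (0 and 0 with summed scores) and log2 scores 0 and 5. With summed scores over 20 lists the number of calls changed with the list left out, and was largest without HRG replicate 1. The replicate block also gave 2, 0 and 34 regions for the interactions with 1 h, 12 h and BT474R. With summed scores these were 6, 0 and 33, with a score of at least 400 the interaction with 12 h gave 4 and that with BT474R 27, and with log2 scores that with 12 h gave 19. The EGF-restricted and HRG-restricted regions numbered 741 and 178 with a score of at least 400, 528 and 630 with equal numbers of peaks, and 2468 to 3307 and 771 to 1565 without 1 list. Promoters within 3 kb took 15.0% and 13.8%, the HRG share with a score of at least 400 was 12.9%, and without 1 list the shares were 5.27% to 17.9% and 4.03% to 28.4%. AP-1 shares were 16.3% and 39.2% within 250 bases and 7.56% for EGF with a score of at least 400, and 9.04% to 12.4% and 22.3% to 31.4% without 1 list. The share open in both vehicle lists was 45.6% for EGF with equal numbers of peaks, 30.3% for HRG with a score of at least 400, and 23.4% to 50.4% and 15.1% to 30.2% without 1 list. PRLR turned to -0.529 with summed scores and -0.646 over 20 lists, and ATP7B (-13.9) to 0.329 and 0.402. Both regions held different numbers of peaks in the EGF and the HRG lists. Of the other values of single regions, 179 stayed on their side, 11 passed the threshold that they had missed, 13 no longer passed it and 7 moved. The cause of these changes was not tested. Unknown depth limits what a missing peak shows.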
